A study of Mus musculus with 2 samples.

Results

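The 39 genes described here encode peptidases, sugar and lipid hydrolases, membrane proteins and regulators of the lysosome. They were taken as a list of names, with earlier results of these data known. Of these genes, 38 were measured by at least 1 probe set named for that gene alone, out of 18193 genes so measured on the array. *Cd63*, which encodes a tetraspanin of lysosomal membranes, had no probe set named for it alone and is not analysed here. Total RNA came from SFZ cells, the superficial zone of articular cartilage of femur and tibia, and from costal chondrocytes (CC) of the ribs. The donors of both were ICR mice, 4 days after birth, with no mutation or treatment in the labels, and the cells were cultured in DMEM with 10% FBS. How many mice went into each culture is not stated. Each cell type was hybridized to 1 Affymetrix mouse array, so no difference between the arrays has a replicate check and no test was run. The values are the MAS5 signals that the authors deposited. A signal is a linear intensity, and each is read from a probe set, several short oligonucleotides that match a transcript.

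Lysosomes are acidic compartments in which soluble hydrolases take apart proteins, glycans and lipids that arrive by endocytosis and autophagy. Cathepsins are the main lysosomal peptidases, and most of them use a cysteine in the active site. Glycosaminoglycans such as keratan, chondroitin, dermatan and heparan sulfate are removed sugar by sugar and sulfate by sulfate, and inherited loss of these enzymes causes mucopolysaccharidoses, storage diseases that affect cartilage and bone. TFEB, a basic helix-loop-helix factor, is known to switch on many lysosomal genes through E-box motifs in their promoters.

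Because TFEB is itself among the genes described, the E-box letters in their promoters are shown first. Promoter sequences of 250 bases before to 50 bases after the annotated gene start (RefSeq, GRCm38.p6) were found for 34 of the 39 genes. Letters were searched on both strands, and 6 strings of letters were counted in all, of which the 2 given here were kept after their counts were seen. The E-box CACGTG was in the promoters of 13 of these 34 genes, or 38.2%, against 8.09% of all 27025 genes with such a sequence and 11.7% of the 10049 of them above background on an array. The longer GTCACGTG, which contains the E-box, was in 10 of the 34, or 29.4%, against 2.55% of all genes and 4.75% of those above background. Of the other strings, TCACGTG was in 11 of the 34 (32.4%, against 4.29% of all genes) and TCACGTGA in 5 (14.7%, against 1.12%), and both contain the E-box. The variant TCACATG was in 7 (20.6%, against 4.50%). The variant TCACGCG was in 0, where 1.57% of all genes held it. A match of letters is a description and not a binding site. The site closest to the annotated start in each of the 10 genes reads as follows, on the strand of the gene, with the matched letters in capitals (CACGTGAC is GTCACGTG on the other strand).
*Ctsa*, chr2:164833768-164833795: tgcagatgctCACGTGACcagagctaca
*Ctsd*, chr7:142387908-142387935: gcccgcgtctCACGTGACccgttgaggg
*Lgmn*, chr12:102439126-102439153: tggaatgtctGTCACGTGgtccatttta
*Glb1*, chr9:114401018-114401045: ctgcttctgaGTCACGTGgcctacagag
*Naglu*, chr11:101070009-101070036: caaccttcagGTCACGTGgcccgaggtc
*Sgsh*, chr11:119355522-119355549: gcctgccgtgCACGTGACcgtggggagc
*Gla*, chrX:134601184-134601211: tgagatctcgGTCACGTGagcaactctc
*Lamp1*, chr8:13159123-13159150: tgccgactggCACGTGACcacatcacgt
*Mcoln1*, chr8:3500464-3500491: gcgccccgctCACGTGACcgcggcgcat
*Sumf1*, chr6:108185579-108185606: agcaccacagGTCACGTGatctccatgg
*Ctsa*, *Ctsd* and *Mcoln1* each held more than 1 such site, and 12 of the 13 sites began upstream of the annotated start, among them the *Lamp1* site at 28 bases and the *Gla* site at 196 bases. On the arrays, the ratios of SFZ cells to CC ran from 0.675 for *Gla* to 1.43 for *Mcoln1* among the 10 genes with these letters. Their median log2 ratio was -0.11, against -0.26 for 23 measured genes without them. All 10 differed by less than 2-fold. By the thresholds given next, 33 of the 38 measured lysosomal genes and 11267 of 12466 genes above background passed in neither direction.

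The arrays were compared by the thresholds of the study. To count as higher in SFZ cells, a gene needed a signal over 100 there and an SFZ/CC ratio over 2, and the same held in reverse for CC. The probe set with the brightest mean log2 signal was read for each gene. The background level of each array, the 95th percentile of probe sets of odorant, taste and vomeronasal receptors, was 28.2 for SFZ cells and 26.2 for CC. All 38 measured genes were above it on both arrays. *Ctsk* and *Npc1* were higher in SFZ cells, or 5.26% of the 38, where 1.72% of all 12466 genes above background on at least 1 array passed. *Ctss*, *Ctsh* and *Ctso* were higher in CC, or 7.89%, close to the 7.9% of all genes that passed in that direction. The other 33 genes passed in neither direction. After scaling to equal medians or quantile normalization, 2 genes remained higher in SFZ cells (*Ctsk* and *Npc1*) and 1 in CC (*Ctss*), where 2.67% or 3.02% of all genes passed in SFZ cells and 6.05% or 5.51% in CC. With RNA of whole cultures, fewer cells of a type and less RNA in each cell cannot be told apart.

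**Figure D1:**
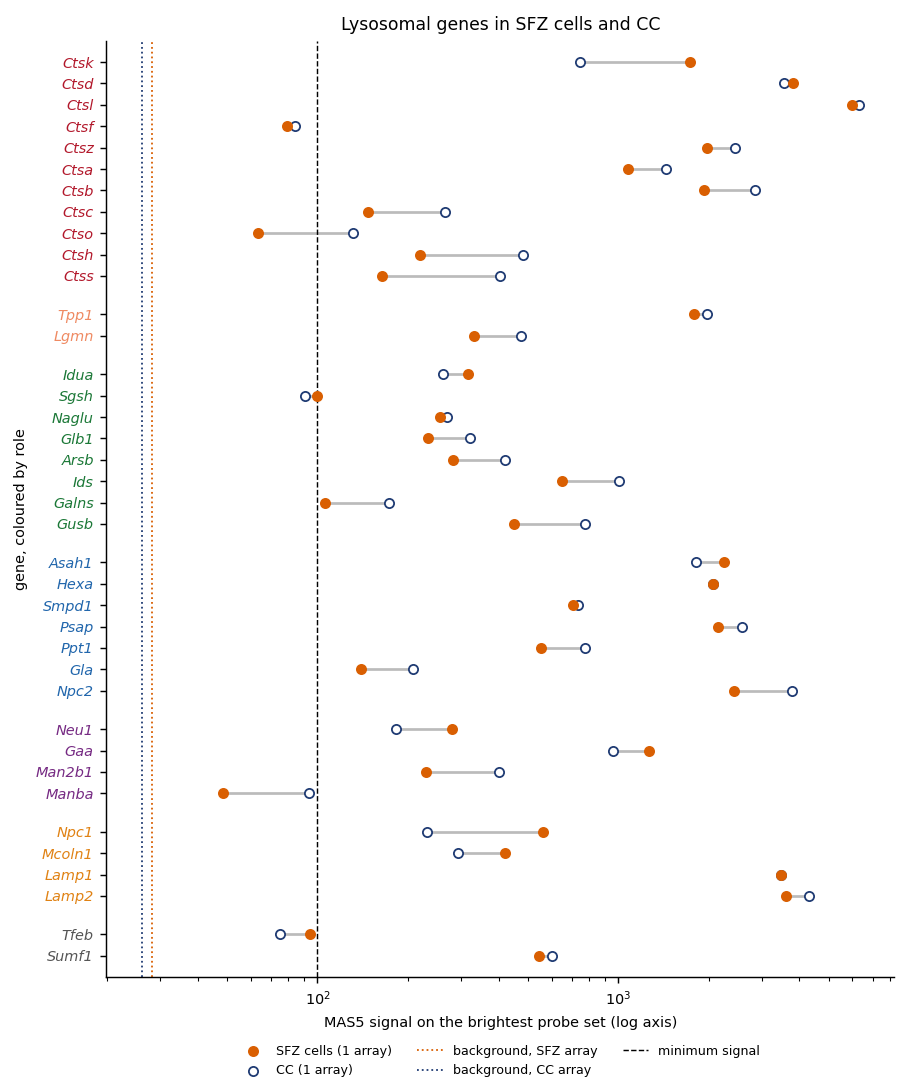
MAS5 signals of the 38 measured lysosomal genes on their brightest probe sets (log axis), with 1 SFZ array (filled points) and 1 CC array (open points), grouped by role and ordered by ratio. The background levels (28.2 and 26.2) are dotted and the minimum signal of 100 is dashed. The widest gaps are those of *Npc1* and *Ctsk* toward SFZ cells and of *Ctss* toward CC, while *Hexa* and *Lamp1* lie on top of each other. Signals of different probe sets do not rank the genes.

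The median log2 ratio of the 38 genes was -0.26, a ratio of 0.837, and that of all genes above background was -0.18. Ratios were over 1 for 11 of the 38, or 28.9%, and for 33.3% of all genes. After scaling to equal medians the medians were -0.07 and 0.01, and 18 of the 38 were over 1. The 7 genes that changed side were *Ctsf*, *Ctsl*, *Hexa*, *Naglu*, *Smpd1*, *Sumf1* and *Tpp1*, and with quantile normalization 6 of them did so, *Ctsl* being the exception. Of the 38 genes, 25 (65.8%) differed by less than 1.5-fold, as did 73.1% of all genes. With the threshold lowered to a ratio of 1.5, 3 of the 38 passed in SFZ cells and 9 in CC, against 4.23% and 15.2% of all genes. A sense of the error comes from probe sets of the same gene, which read the same RNA. Over 5033 genes with more than 1 probe set above background on both arrays, the SD of the log2 ratio within a gene was 0.31, or 1.24-fold, and over 17 of the lysosomal genes it was 0.29. This SD holds the disagreement between probe sets and nothing of the spread between cultures. Of all 84 probe sets named for the genes, 64 were above background on at least 1 array, of which 2 passed in SFZ cells and 4 in CC. Among all 22478 such probe sets of the array, 1.47% and 6.73% passed.

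The cathepsins held 4 of the 5 genes past the thresholds as deposited. Of the 11 cathepsins 1 passed in SFZ cells and 3 in CC, where 1.72% and 7.9% of all genes passed. After either scaling 1 passed in each direction, against 2.67% or 3.02% of all genes in SFZ cells and 6.05% or 5.51% in CC. *Ctsk* encodes cathepsin K, a collagen-degrading cysteine peptidase best known from osteoclasts. Its only probe set gave a signal of 1725 for SFZ cells against 745 for CC (ratio 2.32). The SFZ signal was the higher one, and the ratio stayed between 2.21 and 2.66 as deposited and under 6 alternatives of processing. Of the 10 osteoclast markers 5 were above background on at least 1 array, against 12466 of all 18193 genes. None of the markers passed in either direction, and their signals summed to 336 for SFZ cells and 389 for CC. *Nfatc1* read 163 and 135 and *Acp5* 58.5 and 96.4, both above background on both arrays. *Tnfrsf11a* was above background in SFZ cells alone, at 40.6, and *Mmp9* and *Atp6v0d2* in CC alone, at 40.7 and 31.9. *Calcr*, *Ocstamp*, *Dcstamp*, *Oscar* and *Itgb3* were under it on both arrays. The part of osteoclasts in the *Ctsk* signal was not tested.

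*Ctss*, *Ctsh* and *Ctsc* encode cysteine peptidases that are abundant in leukocytes. This group was not a role of its own in the counts, and the other cathepsins had ratios from 0.483 to 2.32. *Ctss*, the peptidase that trims the invariant chain of antigen presentation, read 164 for SFZ cells against 403 for CC (ratio 0.406.) *Ctsh*, an aminopeptidase, was at 220 and 482, a ratio of 0.455, and at 136 and 289 on its second probe set, a ratio of 0.470. *Ctsc*, which activates serine peptidases of granules, was at 147 and 265, a ratio of 0.556, and did not pass. All 3 genes had the higher signal in CC. Ratios were under 1 for 27 of the 38 lysosomal genes and for 8312 of all 12466 genes above background. Markers of macrophages mostly had the higher signal in CC, as did those of skeletal muscle, adipocytes and fibroblasts given below. Of 17 macrophage markers, 13 were above background in CC and 6 in SFZ cells, against 12050 and 11308 of all 18193 genes. In CC 5 passed and in SFZ cells none, where 7.9% and 1.72% of all genes above background passed. The signals of the 17 summed to 606 for SFZ cells and 2574 for CC. After scaling to equal medians 5 passed in CC, and after quantile normalization 3, against 6.05% and 5.51% of all genes. *Lyz2*, encoding lysozyme, was at 232 and 1432, *Cd14* at 55.1 and 228, and *Adgre1*, encoding an adhesion receptor of macrophages, at 44.1 and 109. *Mrc1*, the mannose receptor, was under background in SFZ cells, and its CC signal of 137 was at least 4.87-fold higher. *Csf1r*, the receptor of a macrophage growth factor, passed too, at 55.6 and 127. *Cd68* and *Laptm5* were above background on both arrays without passing, at 43.7 and 89.2 and at 71.9 and 82.9. *Tyrobp*, *Mpeg1*, *Fcer1g*, *C1qa*, *Ptprc* and *C1qb* were above it in CC alone, with CC signals from 26.8 to 98.9. *Aif1*, *C1qc*, *Itgam* and *Cd163* were under it on both arrays. The part of macrophages in the signals of *Ctss*, *Ctsh* and *Ctsc* was not tested.

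*Ctso*, encoding a little-studied cysteine peptidase, read 63.3 for SFZ cells against 131 for CC (ratio 0.483.) In SFZ cells it read under 100, and the ratio was 0.652 with 64 added to both signals. *Ctsh* and *Ctso* passed as deposited but not after either scaling, nor with 64 added.

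The other cathepsins were closer to equal. *Ctsl*, encoding the broad endopeptidase cathepsin L, read 5962 for SFZ cells against 6289 for CC (ratio 0.948.) *Ctsd*, the aspartic peptidase cathepsin D, was at 3801 and 3552, a ratio of 1.07. For neither gene was the difference larger than the SD between probe sets of a gene. *Ctsb*, encoding cathepsin B, was at 1928 and 2843, a ratio of 0.678, and the ratios of its 4 probe sets above background ran from 0.555 to 0.888. *Ctsz*, a carboxypeptidase, had 3 probe sets with ratios from 0.754 to 0.859, with signals of 1973 and 2444 on the brightest. All probe sets of *Ctsb* and *Ctsz* above background read lower in SFZ cells. *Ctsa*, which protects beta-galactosidase and neuraminidase in a complex, was at 1076 and 1441, a ratio of 0.747. Its second probe set, with signals of 56.5 and 36.8, went the other way at 1.54. *Ctsf* was at 79.2 and 84.3, a ratio of 0.940, and a dimmer probe set read 45.5 and 30.4. Thus the probe sets of *Ctsa* and *Ctsf* gave no common direction.

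For the 9 cysteine cathepsins the median log2 ratio was -0.56. As deposited 8 of the 9 had a ratio under 1 and *Ctsk* alone (11.1%) was over 1, against 33.3% of all genes. After scaling to equal medians *Ctsf* and *Ctsl* were over 1 too, and after quantile normalization *Ctsf*. By then 50.7% and 54.9% of all genes were over 1. The median of all 11 cathepsins was -0.42 as deposited and -0.23 after scaling to equal medians. *Ctsk* and *Ctss* lay 2.51 apart on the log2 scale. Of the other peptidases, *Lgmn*, encoding legumain, which cuts after asparagine and matures several cathepsins, was at 331 and 475, a ratio of 0.697. *Tpp1*, a tripeptidyl peptidase lost in a neuronal ceroid lipofuscinosis, was at 1778 and 1968, a ratio of 0.903, and at 1.01 on its second probe set. Of 6 listed inhibitors of cathepsins 4 were measured, none passed, and their median log2 ratio was 0.22.

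**Figure D2:**
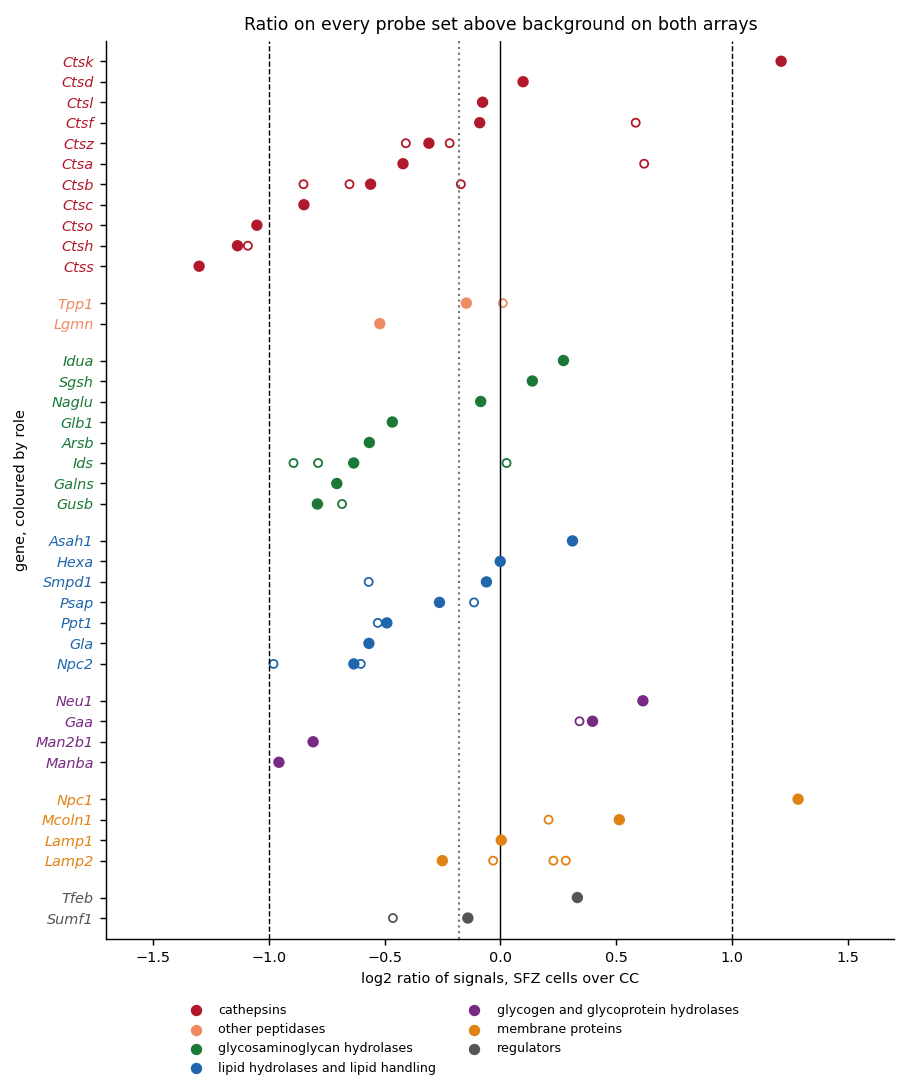
SFZ over CC ratios on the log2 scale, from 1 array each, on every probe set above background on both arrays. Filled points are the brightest probe set of a gene and open points the others, the dashed lines stand at a ratio of 2 either way and the dotted line the median of all genes at -0.18. Of 17 genes with more than 1 such probe set, 12 had all of them on the same side of a ratio of 1 and 5 did not, among them *Ctsa*, *Ctsf* and *Lamp2*.

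None of the 8 glycosaminoglycan hydrolases passed in either direction. Their median log2 ratio was -0.52, a ratio of 0.699, against -0.18 for all genes. The lower signal was in SFZ cells for 6 of the 8, which left 2 (25.0%) with a ratio over 1, against 33.3% of all genes. After scaling to equal medians the median was -0.33, and after quantile normalization -0.27. Under either scaling 3 of the 8 (37.5%) had a ratio over 1, against 50.7% and 54.9% of all genes. *Gusb*, encoding beta-glucuronidase, which acts on several glycosaminoglycans, read 449 for SFZ cells against 776 for CC (ratio 0.578), and its second probe set gave 0.623. *Galns*, which removes sulfate from keratan sulfate and chondroitin sulfate, was at 106 and 173, a ratio of 0.613. *Arsb*, which removes sulfate from dermatan and chondroitin sulfate, was at 283 and 418, a ratio of 0.676. These 3 genes read lower in SFZ cells by more than the SD between probe sets of a gene.

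*Ids* and *Idua* act in turn on the iduronic acid of dermatan and heparan sulfate, *Ids* taking the sulfate and *Idua* the sugar. *Ids* read 649 for SFZ cells against 1006 for CC (ratio 0.645.) Of its other probe sets above background, those with signals of 91.1 and 157 and of 29.4 and 54.7 gave 0.580 and 0.539, and that with signals of 58.0 and 57.0 gave 1.02. *Idua* was at 315 and 261, a ratio of 1.21, and its second probe set, with signals of 158 and 131, also gave 1.21. The sulfatase gene therefore read lower in SFZ cells on 3 of 4 probe sets and the iduronidase gene higher on both of its own.

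*Glb1*, encoding the beta-galactosidase of keratan sulfate and gangliosides, read 233 for SFZ cells against 321 for CC (ratio 0.724.) *Naglu* and *Sgsh* act on heparan sulfate, and both lay close to a ratio of 1. *Naglu*, which removes N-acetylglucosamine, was at 255 and 270, a ratio of 0.943, and *Sgsh*, which removes the sulfate bound to nitrogen, was at 99.9 and 90.8, a ratio of 1.10. *Sumf1*, whose product in the endoplasmic reticulum makes every sulfatase active, was at 545 and 601, a ratio of 0.907, and at 322 and 445, a ratio of 0.725, on its second probe set. For the 4 sulfatases *Arsb*, *Galns*, *Ids* and *Sgsh* the median log2 ratio was -0.60. The lower signal was in SFZ cells for 3 of them, which left 1 (25.0%) with a ratio over 1, against 33.3% of all genes.

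None of the 7 genes grouped as lipid hydrolases and lipid handling passed, and their median log2 ratio was -0.26. *Npc1*, grouped with the membrane proteins, is given further on. *Asah1*, encoding acid ceramidase, read 2253 for SFZ cells against 1816 for CC (ratio 1.24), the only one of the 7 over 1. *Hexa*, the alpha subunit of beta-hexosaminidase, which is lost in Tay-Sachs disease, was at 2060 and 2061, a ratio of 0.999. *Smpd1*, encoding acid sphingomyelinase, was at 704 and 735, a ratio of 0.959, and its dimmer probe set gave 0.674. *Psap*, the precursor of the saposins that present sphingolipids to their hydrolases, was at 2144 and 2572, a ratio of 0.833, and at 0.924 on its second probe set.

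The lipid genes further from equal lay toward CC. *Gla*, encoding the alpha-galactosidase lost in Fabry disease, read 140 for SFZ cells against 207 for CC (ratio 0.675.) *Ppt1*, which removes palmitate from proteins, was at 552 and 775, a ratio of 0.712, with 0.693 on its second probe set. *Npc2*, the soluble carrier that takes up cholesterol in the lumen, was at 2428 and 3764, a ratio of 0.645. Its other probe sets gave 0.658 and 0.507, so that all 3 above background read lower in SFZ cells.

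*Npc1*, the membrane protein that receives cholesterol from NPC2 and passes it out of the lysosome, ran the other way. It read 562 for SFZ cells against 231 for CC (ratio 2.44) on its only probe set. As deposited and under the same 6 alternatives the ratio was between 2.12 and 2.87. The log2 ratios of *Npc1* and *Npc2*, whose products act in turn on cholesterol, differed by 1.92.

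Of the other membrane proteins measured, none passed. *Lamp1* and *Lamp2* encode the abundant glycoproteins that coat the lysosomal membrane. *Lamp1* read 3468 for SFZ cells against 3460 for CC (log2 ratio 0.0035.) *Lamp2* had 4 probe sets, with ratios of 0.841, 0.978, 1.17 and 1.22, and signals of 3613 and 4299 on the brightest. *Mcoln1*, encoding a calcium channel of the lysosome, was at 419 and 294, a ratio of 1.43, and at 268 and 232, a ratio of 1.15, on its second probe set. The median log2 ratio of the 4 membrane protein genes measured was 0.26. *Tfeb*, the transcription factor, was at 94.3 and 74.9, a ratio of 1.26, with both signals under the minimum of 100.

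The hydrolases of glycogen and glycoproteins lay on both sides. *Neu1*, a neuraminidase, read 280 for SFZ cells against 183 for CC (ratio 1.53.) *Gaa*, encoding the acid alpha-glucosidase that degrades glycogen and is lost in Pompe disease, was at 1261 and 957, a ratio of 1.32, and its second probe set gave 1.27. The mannosidase genes read the other way. *Man2b1* was at 229 and 402, a ratio of 0.571, and *Manba* was at 48.5 and 94.0, a ratio of 0.516 with a CC signal under the minimum.

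**Figure D3:**
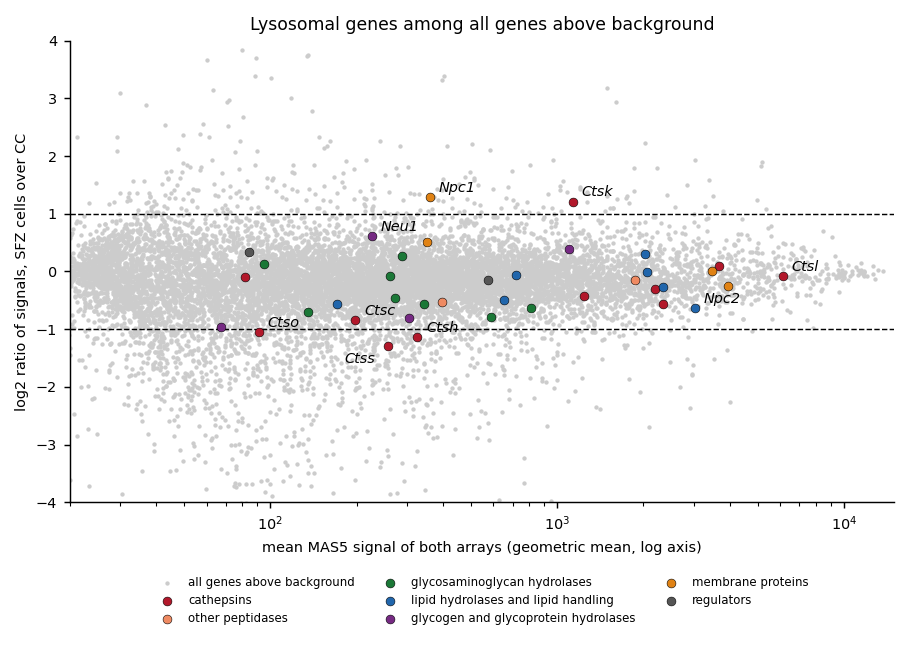
Log2 ratio of SFZ cells over CC against the mean signal of both arrays (log axis), 1 array each, for all genes above background (grey) and the 38 lysosomal genes (coloured by role). The dashed lines stand at a ratio of 2 either way, and 54 grey genes lie beyond the range of 4 on either side of 0. *Npc1* and *Ctsk* stand above the bulk of genes of like signal, while *Ctss* and *Ctsh* lie inside the broad lower side.

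The ratios of all genes give the scale for these values. Among 6598 genes with a mean signal from 100 to 1000, the 5th and 95th percentiles of the ratio were 0.374 and 1.51. *Npc1* and *Neu1* were above the 95th percentile and none of the 19 lysosomal genes in this range was below the 5th. Among 1695 genes from 1000 to 10000 the percentiles were 0.573 and 1.57, and *Ctsk* alone of 14 lysosomal genes lay outside, above. Among genes from 26 to 100 none of 5 lay outside. These percentiles hold both noise and true differences between the cells.

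Other genes of the pathway were counted by the same thresholds. Of 26 other lysosomal hydrolases and activators, 20 were measured, none passed in SFZ cells, and *Ctse*, encoding an aspartic cathepsin, passed in CC at 106 and 235, a call lost after either scaling. Their median log2 ratio was -0.26. Of 18 other lysosomal membrane proteins and 16 measured subunits of the V-ATPase, the proton pump that acidifies the lysosome, none passed, and the medians were 0.29 and 0.13. Among the 12 genes of tagging and sorting of hydrolases none passed, with a median of -0.18. Of the 16 autophagy genes none passed, with a median of -0.09.

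Of 16 genes of TFEB relatives and of mTORC1 control on the lysosome, 15 were above background and none passed as deposited, with a median of 0.15. After scaling to equal medians, which raised every log2 ratio by 0.188, *Fnip2* and *Rragd* passed in SFZ cells, as did 2.67% of all genes. Both act on TFEB through the Rag GTPases. They were at 641 and 354, and at 139 and 75.5. After the same scaling *Sqstm1* and *Gabarapl1* of the autophagy list passed too, at 2720 and 1504 and at 653 and 354 as deposited. These 4 genes were named after their values were seen.

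**Figure D4:**
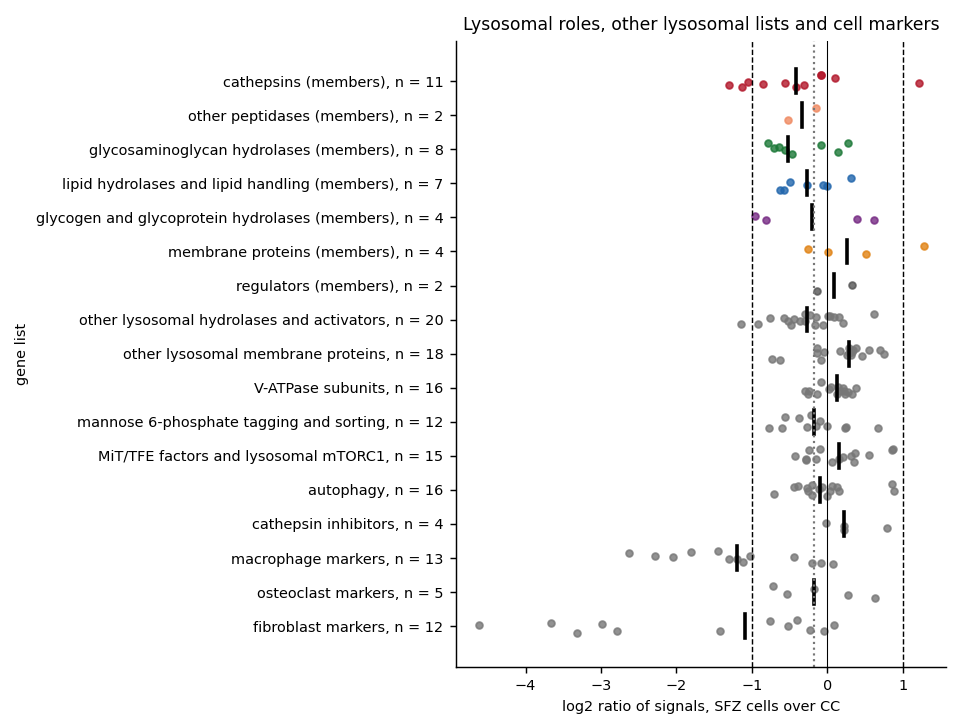
SFZ over CC ratios on the log2 scale, from 1 array each, by role of the lysosomal genes (coloured) and for other lists (grey). Points are genes detected over background on either array, with signals raised to background, and bars are medians. Dashed lines mark a ratio of 2 and the dotted line the median of all genes at -0.18. The medians are 0.26 for the membrane proteins and -0.52 for the glycosaminoglycan hydrolases.

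Hydrolases with their activators, most of them soluble, and membrane proteins were set side by side after their values were seen. Of 52 measured hydrolases and activators, the lysosomal genes described here together with the other list, 13 (25.0%) had a ratio over 1. Their median log2 ratio was -0.30. The other list holds *Hgsnat* and *Hyal2*, whose products are bound to membranes. Of 38 measured membrane proteins and V-ATPase subunits, 26 (68.4%) had a ratio over 1, and the median was 0.19. Of all genes 33.3% had a ratio over 1. After scaling to equal medians these shares were 42.3% and 84.2%, against 50.7% of all genes. After quantile normalization they were 42.3% and 81.6%, against 54.9%.

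The samples were also read for their cell types. The 8 chondrocyte markers were all above background on both arrays. Ratios were over 1 for 5 of the 8, with a median log2 ratio of 0.21. Only *Matn1* passed, at 9989 in SFZ cells and 2692 in CC. *Col2a1* (8251 and 9074), *Sox9* (902 and 1150) and *Col9a1* (11711 and 11816) had the lower signal in SFZ cells. Of the 5 superficial zone markers 3 had a ratio over 1. *Prg4*, which alone passed in SFZ cells, was at 323 and 73.6, *Erg* at 113 and 65.2 and *Gdf5* at 93.1 and 74.2. *Vcam1* and *Thbs4* passed in CC, at 35.7 and 354 and at 108 and 388. All 10 skeletal muscle markers and all 4 measured adipocyte markers above background passed in CC, where 7.9% of all genes passed. So did 6 of 12 fibroblast markers, such as *Postn* at 138 and 3394. The part of these cells in the lysosomal signals was not tested. *Actb* read 7578 for SFZ cells against 9338 for CC.

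**Figure D5:**
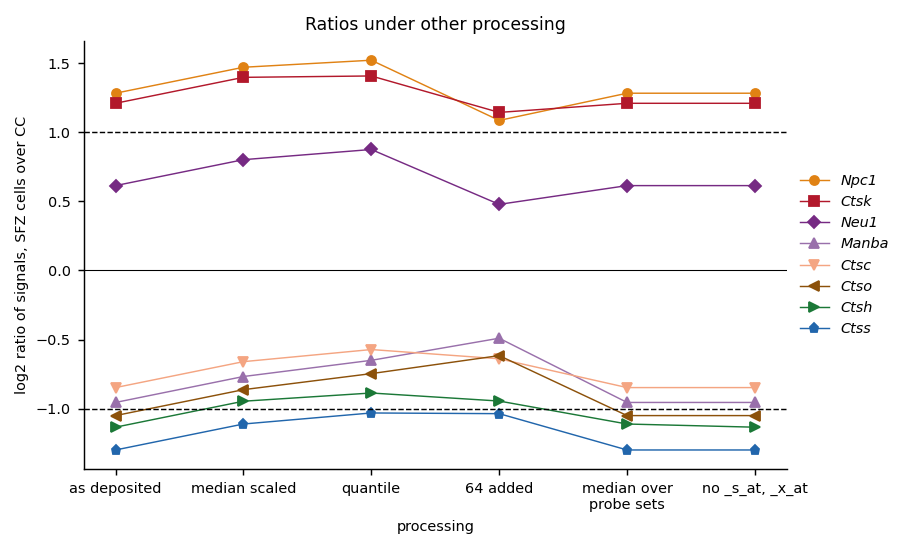
SFZ over CC ratios on the log2 scale, from 1 array each, for 8 lysosomal genes under the processing named below the axis. Lines join the points of a gene and dashed lines mark a ratio of 2. *Npc1* and *Ctsk* stay above the upper line and *Ctss* below the lower one in all 6 settings, while *Ctsh* and *Ctso* cross it after either scaling and with 64 added. *Npc1*, *Ctsk* and *Ctss* have 1 probe set each, so the settings that choose among probe sets could not change them.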

How the data were processed

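SFZ and CC RNA, 100 ng of each, was labelled and hybridized to Affymetrix arrays, 1 for each cell type. Linear intensities (MAS5 signals) were deposited by the authors and used here without further scaling. The version and scaling target of MAS5 were not given in the sources used here. Leaving aside 64 controls, the array had 45037 probe sets. The platform annotation named 34945 of them for 1 gene, 932 for several and 9160 for none here, and 34741 matched RefSeq (GRCm38.p6) by Entrez identifier.

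Each gene was read from its probe set of highest mean log2 signal. For log2 ratios, signals at or under background were raised to it, and genes under it on both arrays were left out. Background was set at percentile 95 of 84 probe sets of chemosensory receptors. The number of arrays limits the precision, and no test was run. The counting was tried on simulated data, as a check of the procedure alone. That check gives no error rate for the calls made here, whose ratios lie close to the threshold.

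All lysosomal genes are accounted for. From each other list, up to 4 genes past the thresholds in each direction, by ratio, and markers under background could be named. The other osteoclast, macrophage, chondrocyte and superficial zone markers given here, *Hgsnat* and *Hyal2* were named after their values were seen, as were the genes said to be. The genes, roles, lists and thresholds were chosen with earlier results of these data known. For the promoters 6 strings of letters were counted, and 2 of them were carried further after the counts were seen. Python 3.11.15, numpy 2.4.6, pandas 2.3.3 and matplotlib 3.10.9 were used.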

Additional observations from a re-analysis of the deposited data

How the results depend on the processing

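Alternatives were scaling to equal medians, quantile normalization, 64 added to both signals, no raising to background, the median over probe sets, probe sets that can bind several transcripts (names ending _s_at or _x_at) left out, other thresholds, and calls by any probe set or by all of them. The 2 genes higher in SFZ cells became 0 at a ratio over 3 and were 2 or 3 under the others. The 3 genes higher in CC became 1, *Ctss*, with median scaling, quantile normalization or 64 added, 9 at a ratio over 1.5 and 0 at a ratio over 3, and were 2 or 3 under the others. A changed threshold moves a count by its construction, and rules on probe sets cannot move *Ctsk*, *Npc1* and *Ctss*, which have 1 each. Scaling to equal medians likewise raised every log2 ratio by 0.188, which took *Ctsh* to -0.95 and *Ctso* to -0.86, short of 2-fold. *Ctss* went to -1.11 and still passed. Why the medians of the arrays differ was not tested. As deposited and under the 6 alternatives that apply to log2 ratios, the median ran from -0.29 to -0.07 for all 38 genes, -0.42 to -0.23 for the cathepsins, -0.52 to -0.27 for the glycosaminoglycan hydrolases, -0.31 to -0.08 for the lipid genes and 0.11 to 0.45 for the membrane proteins. That of the glycogen and glycoprotein hydrolases ran from -0.23 to 0.01 and changed sign with quantile normalization. Of single genes, 6 moved by more than 0.31, the SD of log2 ratios between probe sets of a gene. With the median over probe sets *Ctsa* went from -0.42 to 0.10, *Lamp2* from -0.25 to 0.10 and *Ctsf* from -0.09 to 0.25, and with quantile normalization *Ctsf* went to 0.23. With 64 added *Ctso* went from -1.05 to -0.62 and *Manba* from -0.96 to -0.49. Without the _s_at and _x_at probe sets *Sumf1* went from -0.14 to -0.46. With 1 array per cell type no array could be left out, and MAS5 detection calls, which would tell how far dim signals such as those of *Ctso* and *Manba* can be read, were not used here.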
